A study of Mus musculus with 6 samples.

Results

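The genes described here are 10 genes of the transforming growth factor beta (TGF-beta) pathway, taken by symbol from the deposited count table: the ligand gene Tgfb1, the receptor genes Tgfbr1, Tgfbr2 and Tgfbr3, the SMAD genes Smad3 and Smad7, the corepressor genes Ski and Skil, and the feedback genes Pmepa1 and Ldlrad4. All 10 were found among the 55291 symbols of the table, and all 10 passed the filter on low counts that left 14475 genes for the test. RNA came from cells sorted as type 1 innate lymphoid cells (ILC1s) or as natural killer (NK) cells out of MC38 tumours grown under the skin of wild-type C57BL/6 mice for 14 days, with 3 libraries of each cell type. MC38 is a carcinoma line from the mouse colon. No genotype or drug treatment separates the groups, and mouse age, the antigens used for sorting and the number of mice behind the libraries are not stated in the labels, so the spread between libraries that p-values rest on may be technical.

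TGF-beta is secreted in a latent form and, once released, brings together a type II receptor (Tgfbr2) and a type I receptor (Tgfbr1), whose kinase phosphorylates SMAD2 and SMAD3. These bind SMAD4, enter the nucleus and act on genes together with other factors, while SKI and SKIL (SnoN) hold the complex in check. Smad7, Skil, Pmepa1 and Ldlrad4 are known to be induced by the pathway or to restrain it, and so form its feedback arm. In NK cells TGF-beta lowers cytotoxic and proliferative functions, and in mouse tumours it has been linked to the acquisition of ILC1 features by NK cells. All 10 are protein-coding genes, counted over the whole gene. On GRCm38, Tgfb1 lies at chr7:25687002-25705077, Tgfbr2 at chr9:116084293-116175360, Tgfbr3 at chr5:107106570-107289629, Smad7 at chr18:75367529-75395935, Ski at chr4:155154075-155222592, Skil at chr3:31095058-31122577 and Pmepa1 at chr2:173224458-173276533.

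The 6 libraries held 16931099 to 20224847 counts, and levels are given as CPM, a library's counts scaled to a common total, after scaling by the trimmed mean of M values (TMM), with means ± SD over 3 libraries. Markers of the sorted cells were present in each library: Ncr1 was at 330 to 362 CPM in ILC1s against 408 to 656 CPM in NK cells, Itga1 at 130 to 178 CPM in ILC1s against 40.0 to 53.1 CPM in NK cells, and Eomes at 68.4 to 170 CPM in ILC1s against 361 to 562 CPM in NK cells. The summed level of 6 markers shared by both types was 4280 to 5050 CPM in ILC1s against 5460 to 8370 CPM in NK cells. Of these 6, 0 had a higher mean in ILC1s. Klrb1c, a defining marker beside Ncr1, was at 339 to 360 CPM in ILC1s against 603 to 1060 CPM in NK cells. Libraries also differed in markers of other cells. The summed level of 12 fibroblast and matrix markers was 1010 to 2920 CPM in ILC1s against 704 to 1700 CPM in NK cells, all 12 having a higher mean in ILC1s. Much of this sum was Thy1, which lymphocytes also carry. Without it, the sum over the other 11 was 1410, 2070 and 68.4 CPM in ILC1 replicates 1 to 3, and 9.64, 13.1 and 1170 CPM in NK replicates 1 to 3. The summed level of 12 macrophage and monocyte markers was 13800 CPM in ILC1 replicate 3, 391 and 290 CPM in ILC1 replicates 1 and 2, and 111 to 286 CPM in the NK libraries, again with all 12 higher on average in ILC1s. By these markers the libraries fell into 3 sets, which serve as a term in an alternative fit. They were ILC1 replicates 1 and 2 with NK replicate 3 (fibroblast-rich), ILC1 replicate 3 (macrophage-rich), and NK replicates 1 and 2. Only the fibroblast-rich set holds both cell types, so with that term the cell type estimate rests on that set alone. Other marker lists spanned 169 to 223 CPM in ILC1s against 188 to 259 CPM in NK cells for endothelial cells (7 of 8 higher in ILC1s), 75.3 to 213 and 56.2 to 75.3 CPM for T cells (7 of 8), and 106 to 382 and 16.1 to 33.0 CPM for epithelial cells (3 of 6). Cdh1 alone made most of the epithelial sum in ILC1s, at 97.5 to 377 CPM in ILC1s against 12.2 to 23.3 CPM in NK cells, while Epcam was at 4.04 to 4.35 CPM in ILC1s against 1.34 to 3.45 CPM in NK cells. Platelet markers summed to 6.46 to 77.8 CPM in ILC1s against 4.42 to 8.54 CPM in NK cells (4 of 6), where the defining Gp9 had 0 counts in all 6 libraries. Dendritic cell markers summed to 26.7 to 38.4 CPM in ILC1s against 24.2 to 45.6 CPM in NK cells (6 of 8 higher in ILC1s), B cell markers to 280 to 383 and 308 to 581 CPM (4 of 6), and granulocyte and mast cell markers to 7.88 to 17.3 and 12.9 to 45.9 CPM (2 of 8). The defining B cell gene Ms4a1 was at 0.144 CPM or less in every library. Ighm alone made most of the B cell sum, at 277 to 381 CPM in ILC1s against 306 to 579 CPM in NK cells. Most of the endothelial sum was likewise Pecam1, at 163 to 191 CPM in ILC1s against 177 to 257 CPM in NK cells.

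Smad3 was the gene of this set with the clearest gap between the cell types. Of the 10 genes, 0 passed edgeR's quasi-likelihood test at a Benjamini-Hochberg adjusted p under 0.05, where 0.0829% of all genes tested did. At an unadjusted p under 0.05 there was 1 of the 10, Smad3, where 15.8% of all genes tested had such a p. DESeq2 called 1 of the 10, again Smad3, and 3.16% of the 25807 genes it tested. These include genes that the low-count filter removed, whereas all 10 passed that filter. Limma-voom called 0 (0.124%). With no low-count filter edgeR called 1, once more Smad3 (adjusted p = 0.0464), and 0.527% of all genes. There was no overlap between ILC1 and NK libraries for 3 of the 10 genes (Smad3, Tgfbr1 and Ldlrad4), a share near the 25.8% of all genes tested. The median log2 fold change (ILC1 minus NK) of the 10 was 0.02, against 0.08 over all genes tested.

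**Figure D1:**
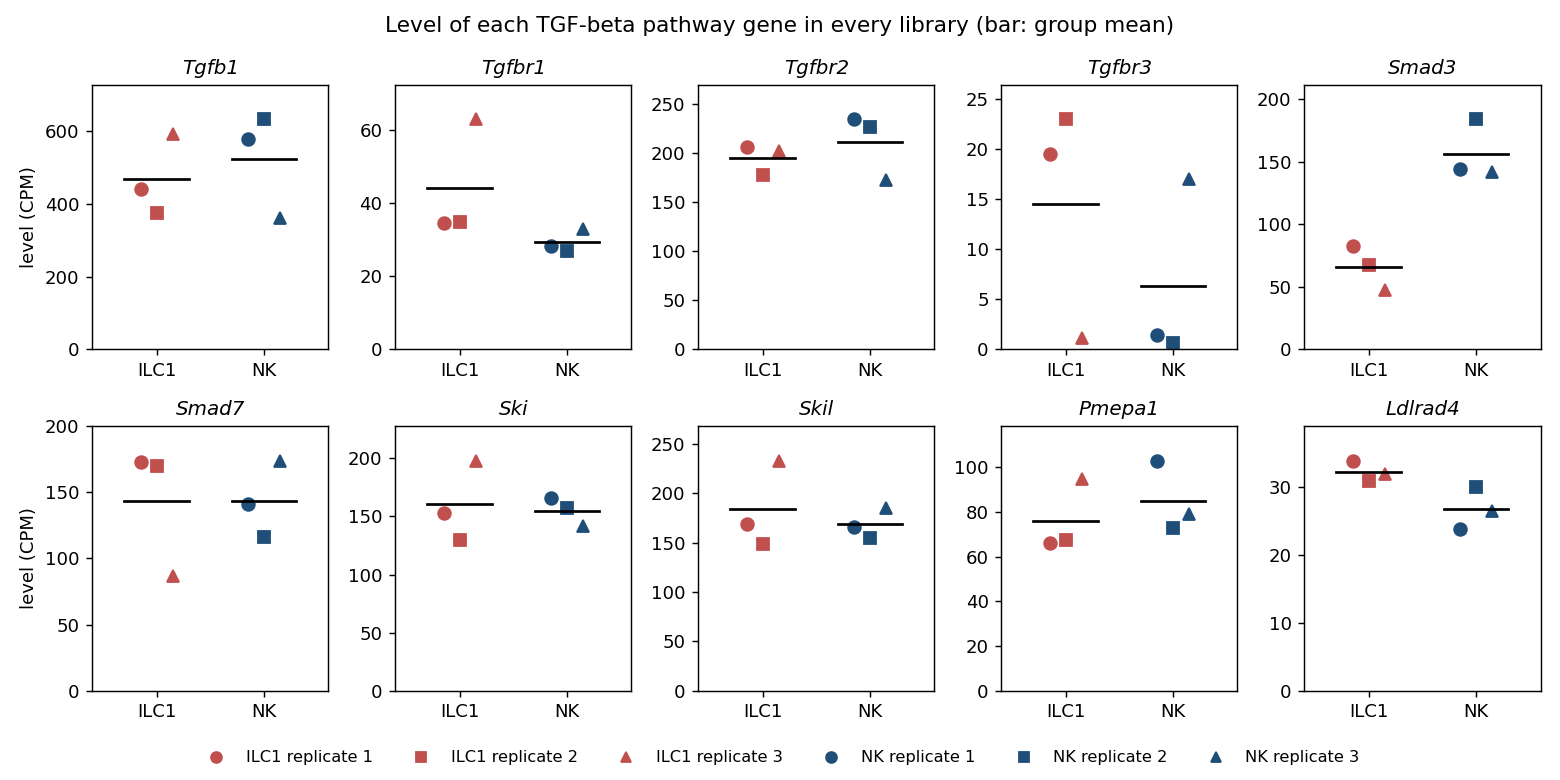
Level in CPM (vertical axes, each from 0) of the 10 genes in the 3 ILC1 and 3 NK libraries, where symbols mark the replicate and bars the group mean. Every Smad3 point of the ILC1 libraries (47.4 to 82.8 CPM) lies below the NK points (142 to 184 CPM), and the 3 high Tgfbr3 points come from ILC1 replicates 1 and 2 and NK replicate 3.

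Smad3 encodes a receptor-activated SMAD, the signal carrier that the type I receptor phosphorylates. It was at 82.8, 67.8 and 47.4 CPM in ILC1 replicates 1 to 3, against 144, 184 and 142 CPM in NK replicates 1 to 3. All 3 ILC1 libraries were below all 3 NK libraries. The mean was 66.0 ± 17.8 CPM in ILC1s against 157 ± 23.6 CPM in NK cells (SD, n = 3 each), a 2.38-fold lower level in ILC1s (log2 fold change -1.25 ± 0.24 SE, 95% interval -1.83 to -0.67). The edgeR adjusted p was 0.127, so the difference did not pass over all genes, although it ranked 207 of 14475 by p. DESeq2 gave an adjusted p of 0.000696. With each library left out in turn the edgeR adjusted p of Smad3 ran from 0.0731 to 0.451 and its log2 fold change from -1.44 to -1.07.

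In the fibroblast-rich libraries Smad3 was lower in both ILC1 libraries than in the NK library, and in the other 3 it was lower in the ILC1 library than in both NK libraries. With a term for library sets the log2 fold change was -0.92 ± 0.20 and did not pass. That estimate rests on the fibroblast-rich libraries, the only set with both cell types, so it is no separate check. With the fibroblast-rich libraries alone (ILC1 replicates 1 and 2, NK replicate 3) the log2 fold change was -0.96 ± 0.17. For ILC1 replicate 3 against NK replicates 1 and 2 it was -1.77 ± 0.22. In each of these comparisons a cell type has a single library, with no spread of its own, so they are given as values only. Their edgeR fits called 12.1% of all genes in the fibroblast-rich libraries and 13.0% in the others, Smad3 among them in both. The lowest Smad3 level stood in ILC1 replicate 3, the library with 13800 CPM of macrophage markers, and the part of those cells in that value was not tested. In bulk libraries, fewer cells of a type and less RNA per cell cannot be told apart.

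Smad3 lies on the reverse strand at chr9:63646767-63757994 of GRCm38 and Tgfbr1, the other signalling gene without overlap between the groups, on the forward strand at chr4:47353222-47414931. The 250 bases before an annotated RefSeq start of each are shown, the ones that end where the gene begins. They come from RefSeq on GRCm38.p6, read 5′ to 3′ on the strand of the gene, at chr9:63757995-63758244 for Smad3 and chr4:47352972-47353221 for Tgfbr1. Capitals mark GC boxes, searched as GGGCGG on both strands.
Smad3: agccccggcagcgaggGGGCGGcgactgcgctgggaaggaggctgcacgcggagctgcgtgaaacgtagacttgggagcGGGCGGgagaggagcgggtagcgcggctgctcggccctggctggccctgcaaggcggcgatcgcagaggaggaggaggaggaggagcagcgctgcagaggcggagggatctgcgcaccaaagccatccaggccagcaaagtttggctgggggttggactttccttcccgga
Tgfbr1: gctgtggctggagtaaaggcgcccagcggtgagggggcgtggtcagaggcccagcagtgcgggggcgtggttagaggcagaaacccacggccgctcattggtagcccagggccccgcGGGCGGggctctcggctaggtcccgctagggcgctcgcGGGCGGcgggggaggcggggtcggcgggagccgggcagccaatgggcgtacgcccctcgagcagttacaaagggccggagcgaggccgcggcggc
Each of these windows held 2 GC boxes, a motif found in 32.7% of the 32851 promoter windows of the same length in the table. Neither held the SMAD palindrome GTCTAGAC (0.167% of windows), the SMAD-binding CAGA box CAGACA (17.1%) or the T-box core GGTGTGA (3.33%), each searched on both strands. RefSeq has another start of Tgfbr1 inside the gene, whose window at chr4:47385966-47386215 held 1 CAGA box, 203 bases before that start, and 0 of the other motifs. Such matches describe letters in a window and nothing about binding. Of the 10 genes, 5 had a window in the table (Tgfb1, Tgfbr1, Tgfbr2, Smad3 and Ski).

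Tgfb1 encodes the ligand, which lymphocytes secrete as a latent complex. It was at 441, 376 and 593 CPM in ILC1 replicates 1 to 3, against 579, 633 and 361 CPM in NK replicates 1 to 3. The groups overlapped, and the lower values came from ILC1 replicates 1 and 2 and NK replicate 3, the libraries with fibroblast markers. The mean was 470 ± 111 CPM in ILC1s against 524 ± 144 CPM in NK cells, with a log2 fold change of -0.16 ± 0.28 (95% interval -0.83 to 0.52, edgeR adjusted p = 0.790). The other ligand genes were named after their values were seen. Tgfb3 was at 9.81 ± 0.891 CPM in ILC1s against 11.9 ± 1.43 CPM in NK cells, and Tgfb2 did not exceed 0.946 CPM in any library. Per kb of exon, Tgfb1 stood at 93.2 ± 22.1 CPM in ILC1s against 104 ± 28.6 CPM in NK cells, and Tgfb3 at 2.90 ± 0.263 and 3.52 ± 0.423 CPM.

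The ligand-binding receptor gene Tgfbr2 was almost level between the cell types. It was at 206, 177 and 202 CPM in ILC1 replicates 1 to 3, and at 234, 226 and 172 CPM in NK replicates 1 to 3. The NK libraries enclosed the whole range of the ILC1 libraries. The log2 fold change was -0.11 ± 0.16 (95% interval -0.51 to 0.29, edgeR adjusted p = 0.761).

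Tgfbr1, the kinase that phosphorylates the SMADs, was at 34.5, 34.9 and 62.8 CPM in ILC1 replicates 1 to 3, against 28.2, 26.8 and 32.9 CPM in NK replicates 1 to 3. All ILC1 libraries were above all NK libraries, but ILC1 replicates 1 and 2 exceeded NK replicate 3 by under 3 CPM. The mean was 44.1 ± 16.2 CPM in ILC1s against 29.3 ± 3.19 CPM in NK cells, and the log2 fold change of 0.59 ± 0.27 did not pass (95% interval -0.08 to 1.25, edgeR adjusted p = 0.359). Without ILC1 replicate 3 it was 0.23. With a term for library sets, which rests on ILC1 replicates 1 and 2 against NK replicate 3, it was 0.08. The high library was the macrophage-rich one: Csf1r, the macrophage growth factor receptor, was at 1080 CPM there and at 11.4 to 56.8 CPM in the other 5 libraries. ILC1 replicate 3 against NK replicates 1 and 2 gave 1.21 for Tgfbr1, the only one of the 16 alternative fits in which it was called, again with a single ILC1 library. The part of macrophage RNA in this value was not tested.

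Tgfbr3 encodes betaglycan, the coreceptor that presents ligand to Tgfbr2. It was at 19.5, 23.0 and 1.16 CPM in ILC1 replicates 1 to 3, against 1.40, 0.668 and 17.0 CPM in NK replicates 1 to 3. The high libraries were ILC1 replicates 1 and 2 and NK replicate 3, so the groups overlapped and a 34.4-fold range separated the highest from the lowest library. Group means were 14.5 ± 11.7 CPM in ILC1s against 6.34 ± 9.20 CPM in NK cells, and the log2 fold change of 1.2 ± 1.50 had a 95% interval of -2.52 to 4.91 (edgeR adjusted p = 0.726). Without NK replicate 3 it was 3.82 (edgeR adjusted p = 0.169). Within the fibroblast-rich libraries it was 0.28, and between ILC1 replicate 3 and NK replicates 1 and 2 it was 0.19.

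The level of Tgfbr3 moved with matrix genes. Col1a1, a collagen chain, was at 116, 134 and 4.87 CPM in ILC1 replicates 1 to 3, and at 0.549, 0.822 and 82.4 CPM in NK replicates 1 to 3. The fibroblast marker Pdgfra, a platelet-derived growth factor receptor gene, was at 10.5, 13.0 and 0.116 CPM in ILC1s. In NK cells Pdgfra was at 0, 0.154 and 7.11 CPM. The libraries high in Tgfbr3 were those high in both markers. Cdh5, an endothelial marker, was also highest in them. It was at 8.46, 7.65 and 0.232 CPM in ILC1s, and at 0, 0 and 3.75 CPM in NK cells. Kdr, the other defining endothelial marker, was not, at 4.40 CPM in ILC1 replicate 3 against 0.817 CPM in NK replicate 3. Of the rest of that list, Tek, Tie1, Emcn, Egfl7 and Plvap were highest in the libraries high in Tgfbr3, and Pecam1 was not. The part of fibroblast or endothelial RNA in the Tgfbr3 values was not tested.

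**Figure D2:**
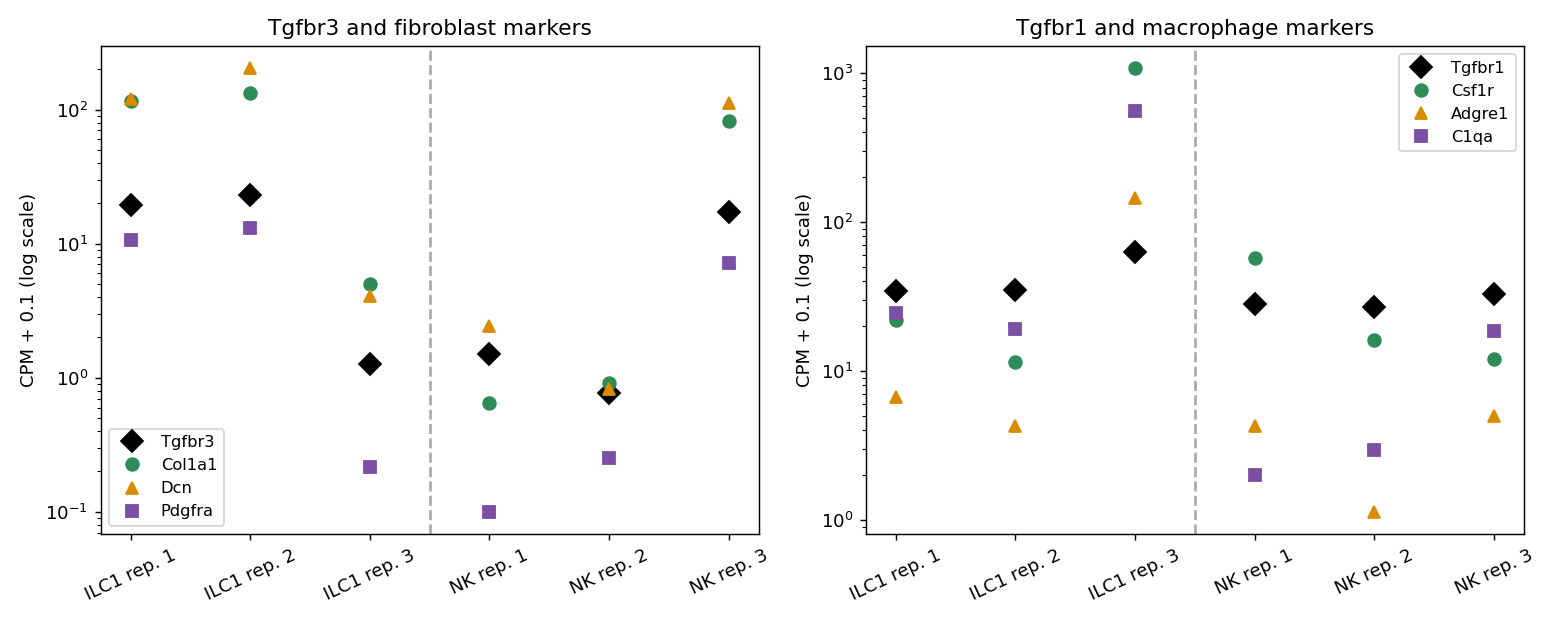
CPM plus 0.1 on a log axis in each library, ILC1 left of the dashed line and NK right of it, for Tgfbr3 with fibroblast markers (left panel) and Tgfbr1 with macrophage markers (right panel). Tgfbr3 is high where Col1a1, Dcn and Pdgfra are high, and Tgfbr1 is highest (62.8 CPM) in ILC1 replicate 3, where Csf1r reaches 1080 CPM.

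Over the 6 libraries, the 3 genes nearest in profile to each receptor were sought among 8884 other tested genes with at least 10 CPM, by the root mean square difference of centred log2 CPM. For Tgfbr1 these were Samd8 (0.0310), Ptpmt1 (0.0466) and Fem1c (0.0539). Tgfbr2 had Spg7 (0.0321), Eif2b4 (0.0337) and Ocel1 (0.0369). Tgfbr3 had Bcat1 (0.169), Maged1 (0.201) and Oaf (0.274). Maged1, for example, was at 96.3, 124 and 4.93 CPM in ILC1 replicates 1 to 3, and at 5.69, 2.67 and 74.0 CPM in NK replicates 1 to 3. These distances describe 6 libraries and share their scaling.

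The inhibitory SMAD gene Smad7, whose product blocks the type I receptor, was at 173, 170 and 86.5 CPM in ILC1 replicates 1 to 3, against 141, 116 and 174 CPM in NK replicates 1 to 3. The lowest value was again ILC1 replicate 3, and the other 2 ILC1 libraries equalled NK replicate 3 to within 4 CPM. The mean was 143 ± 49.2 CPM in ILC1s against 144 ± 28.8 CPM in NK cells (95% interval of the log2 fold change -0.75 to 0.75, edgeR adjusted p = 0.998). Without ILC1 replicate 3 the log2 fold change was 0.24.

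Set against Smad3 within a library and per kb of exon, Smad7 was 2.56, 3.08 and 2.24 times as high in ILC1 replicates 1 to 3, and 1.19, 0.775 and 1.50 times in NK replicates 1 to 3. The ratio did not overlap between the groups (2.63 ± 0.424 in ILC1s and 1.16 ± 0.364 in NK cells). A two-sided exact permutation test gave p = 0.1, the smallest that 3 against 3 libraries allow, and 0.3 when adjusted over the 3 ratios computed. Mean Smad7 was 143 CPM in ILC1s against 144 CPM in NK cells, so the gap in this ratio largely restates that of Smad3. The Tgfbr2 to Tgfbr1 ratio was 3.80 ± 1.12 in ILC1s and 5.84 ± 1.44 in NK cells (exact p = 0.2, adjusted 0.3), and the Skil to Ski ratio 0.656 ± 0.0203 and 0.631 ± 0.103 (exact p = 0.7, adjusted 0.7).

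Smad2 and Smad4, the partners of Smad3, were named after their values were seen. Smad2, the other receptor-activated SMAD of this pathway, was at 58.3, 58.5 and 59.3 CPM in ILC1 replicates 1 to 3, against 42.2, 50.6 and 57.5 CPM in NK replicates 1 to 3 (log2 fold change 0.23 ± 0.15, edgeR adjusted p = 0.487). The shared partner Smad4 averaged 76.4 ± 1.08 CPM in ILC1s against 69.9 ± 4.01 CPM in NK cells (0.13 ± 0.11, edgeR adjusted p = 0.597). For both, the estimate had the opposite sign to that of Smad3. Per kb of exon, Smad3 was at 11.9 ± 3.21 CPM in ILC1s against 28.3 ± 4.25 CPM in NK cells, and Smad2 at 6.68 ± 0.0605 and 5.71 ± 0.873 CPM.

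The corepressor genes differed little. Ski was at 153, 130 and 198 CPM in ILC1 replicates 1 to 3, against 166, 157 and 142 CPM in NK replicates 1 to 3 (log2 fold change 0.05 ± 0.19, 95% interval -0.40 to 0.50, edgeR adjusted p = 0.906). Skil, which is itself a target of the pathway, was at 169, 149 and 233 CPM in ILC1s, against 166, 155 and 185 CPM in NK cells (0.12 ± 0.20, 95% interval -0.36 to 0.60, edgeR adjusted p = 0.775). ILC1 replicate 3 held the highest value of both genes, and the groups overlapped.

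Pmepa1 and Ldlrad4 encode related membrane proteins that keep receptor-activated SMADs from the receptor. Pmepa1 was at 66.2, 67.5 and 94.8 CPM in ILC1 replicates 1 to 3, against 103, 72.8 and 79.0 CPM in NK replicates 1 to 3. The groups overlapped through ILC1 replicate 3, and the log2 fold change was -0.16 ± 0.21 (95% interval -0.67 to 0.36, edgeR adjusted p = 0.740). Ldlrad4 was at 33.8, 30.8 and 31.9 CPM in ILC1s, against 23.7, 30.0 and 26.4 CPM in NK cells. Its groups did not overlap, although the nearest libraries were under 1 CPM apart, and the log2 fold change was 0.27 ± 0.15 (95% interval -0.09 to 0.63, edgeR adjusted p = 0.423).

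On GRCm38, 52.1% of the exon bases of Ldlrad4 (chr18:67933257-68268630) overlap the opposite-strand gene Fam210a. Fam210a was itself at 25.5 CPM in ILC1s against 18.4 CPM in NK cells. The strand setting of the counting is not stated, so reads of Ldlrad4 may have been shared with that gene or lost. Of the other 9 genes, only Tgfbr3 shared exon bases with another annotated gene (4.54%, with the gene model Gm43422).

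**Figure D3:**
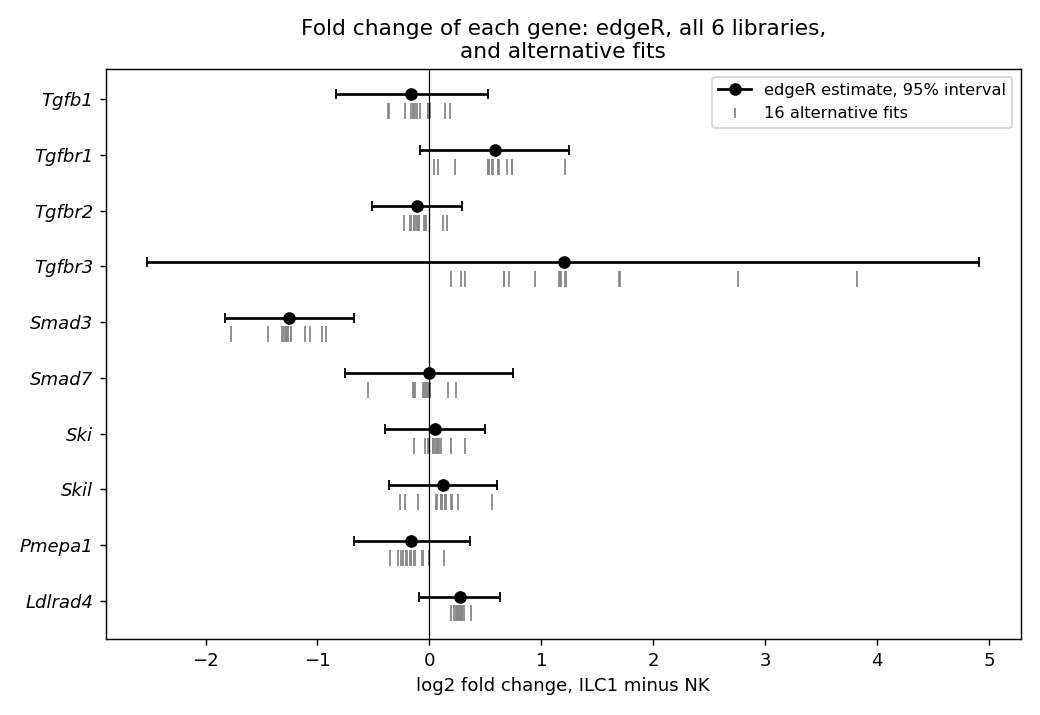
Log2 fold change, ILC1 minus NK, of the 10 genes from edgeR on all 6 libraries (points, with 95% intervals) and from 16 alternative fits (grey ticks). For Smad3 the interval (-1.83 to -0.67) and all 16 ticks (-1.77 to -0.92) lie below 0, and Tgfbr3 has the widest interval of the 10.

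Per kb of exon, Tgfb1 stood above the other 9 genes in every library. In ILC1s it was followed by Smad7 (31.7 ± 10.9 CPM per kb), Ski (28.8 ± 6.27), Tgfbr2 (23.8 ± 1.91), Skil (18.9 ± 4.51), Pmepa1 (15.5 ± 3.28) and Smad3 (11.9 ± 3.21). Of these neighbours, Smad7 and Ski, Ski and Tgfbr2, and Skil and Pmepa1 differed by less than the larger SD of the pair, whereas Tgfbr2 and Skil, and Pmepa1 and Smad3, differed by more. Tgfbr1 (6.74 ± 2.48), Ldlrad4 (5.99 ± 0.281) and Tgfbr3 (2.22 ± 1.79) came last. In NK cells Smad3 (28.3 ± 4.25) instead stood beside Smad7 (31.7 ± 6.38), Ski (27.8 ± 2.20) and Tgfbr2 (25.7 ± 4.12), above Skil (17.4 ± 1.56) and Pmepa1 (17.3 ± 3.24). Ldlrad4 (4.97 ± 0.590), Tgfbr1 (4.49 ± 0.489) and Tgfbr3 (0.969 ± 1.41) were again lowest. Divided by the longest transcript instead of all exons, Tgfb1 came to 183 CPM per kb in ILC1s and 204 in NK cells. Ldlrad4 came to 10.6 and 8.80, above Tgfbr1 in both, whereas with all exons it was above Tgfbr1 in NK cells only. Skil came to 27.3 and 25.1 on that scale, above Tgfbr2 (24.1) in ILC1s and below it (26.0) in NK cells.

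**Figure D4:**
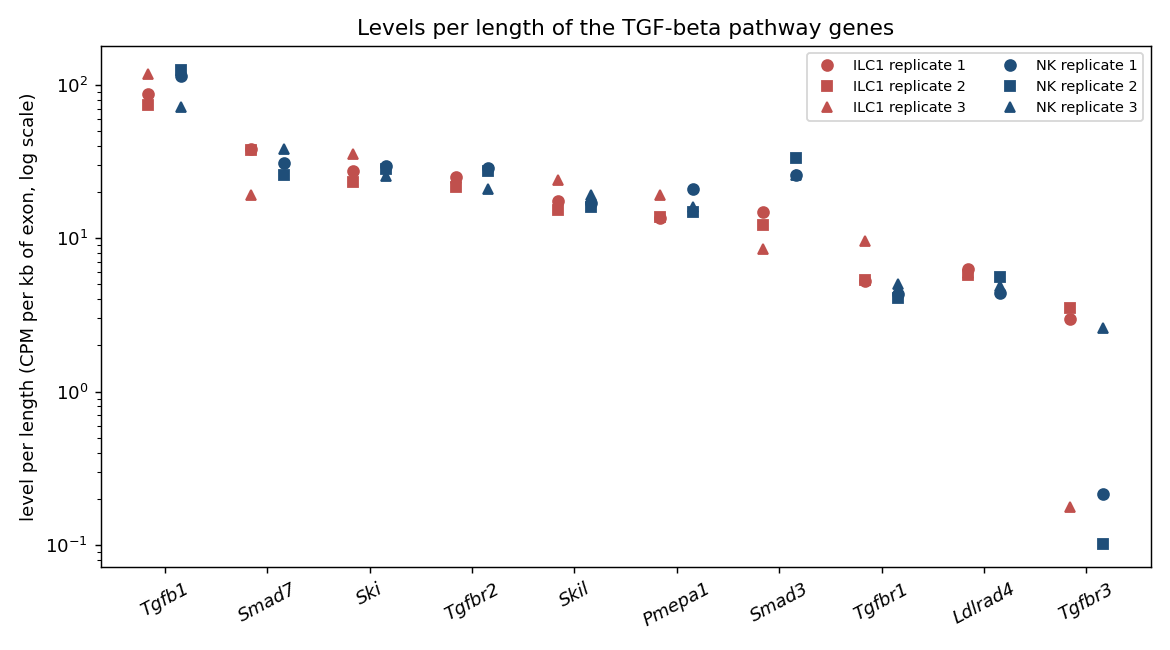
Level per length, in CPM per kb of exon on a log axis, of the 10 genes in each library, ordered by the ILC1 mean. Tgfb1 (71.6 to 126 CPM per kb) is above all other genes, and Smad3 lies at 8.54 to 14.9 CPM per kb in the ILC1 libraries, against 25.7 to 33.2 CPM per kb in the NK libraries, where it stands beside Ski and Tgfbr2.

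The rest of the pathway was described with 7 lists holding 104 genes, of which 96 were tested. None of the 96 passed edgeR's test (0.0829% of all genes tested), and 14 were higher and 9 lower in ILC1s at an unadjusted p under 0.05, where 6.95% of all genes tested were higher and 8.82% lower. DESeq2 called 9 of them higher and 5 lower, giving no adjusted p for 7, where it called 1.55% of all genes it tested higher and 1.61% lower. Those shares are over 25807 genes, including ones that the low-count filter removed, whereas the 96 all passed it. Limma-voom called 1 higher (Itga1), where it called 0.111% of all genes higher. Their median log2 fold change was 0.23, against 0.08 over all genes tested.

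Genes of ligand release and activation (13 of 14 tested) had a median log2 fold change of 1.46. At an edgeR unadjusted p under 0.05, 5 were higher and 0 lower, against 6.95% and 8.82% of all genes tested. Furin, the protease that cleaves the TGF-beta precursor, was at 302, 254 and 693 CPM in ILC1 replicates 1 to 3, against 140, 145 and 136 CPM in NK replicates 1 to 3 (log2 fold change 1.57 ± 0.40, edgeR adjusted p = 0.186). The alpha V integrin gene Itgav, whose integrins free the latent ligand, was at 100, 103 and 81.5 CPM in ILC1s, against 45.6, 45.1 and 70.3 CPM in NK cells (0.82 ± 0.22, edgeR adjusted p = 0.198). Ltbp3, a latent TGF-beta binding protein, averaged 117 ± 33.0 CPM in ILC1s against 44.7 ± 22.8 CPM in NK cells (1.39 ± 0.41, edgeR adjusted p = 0.232). DESeq2 called these 3 genes and Mmp14, a membrane protease gene, higher in ILC1s. Of the 13 tested, 5 were higher in all ILC1 libraries than in any NK library, as were 12.5% of all genes tested. These were Furin, Itgav, Ltbp3, Mmp14 and Lrrc32, whereas Tgfb3 was lower in all ILC1 libraries. Thbs1, the thrombospondin gene, overlapped between the groups. It reached 4090 CPM in ILC1 replicate 3 against 11.6 to 87.4 CPM in the other 5 libraries. The list median was 2.72 without NK replicate 3. With a term for library sets, which rests on ILC1 replicates 1 and 2 against NK replicate 3, the list median was 0.48. Ltbp1, Ltbp2 and Ltbp4 were named after their values were seen. Ltbp1, whose log2 fold change is the list median, was at 39.6, 56 and 1.33 CPM in ILC1 replicates 1 to 3. In NK replicates 1 to 3 it was at 0.3, 0.719 and 34.3 CPM. Ltbp2 and Ltbp4 were likewise highest in the fibroblast-rich libraries. The part of fibroblast and macrophage RNA in this list median was not tested.

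Receptor partners and turnover genes (16 tested) had a median of 0.03. At an edgeR unadjusted p under 0.05, 1 was higher and 1 lower, against 6.95% and 8.82% of all genes tested. Fkbp1a, which encodes the immunophilin that keeps the type I receptor silent, averaged 212 ± 48.9 CPM in ILC1s against 131 ± 13.2 CPM in NK cells (0.69 ± 0.20, edgeR adjusted p = 0.216). Tgfbrap1, which encodes a receptor-associated protein, averaged 28.6 ± 3.82 and 40.6 ± 3.98 CPM (-0.50 ± 0.16, edgeR adjusted p = 0.248). The endothelial receptor gene Acvrl1 reached 56.9 CPM in ILC1 replicate 3 and was at 0 to 2.34 CPM elsewhere, and the stress phosphatase subunit gene Ppp1r15a had the highest level of the list, with 312 ± 26.2 CPM in ILC1s against 360 ± 64.3 CPM in NK cells.

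The other SMADs and nuclear partners (14 of 16 tested) had a median of -0.03 and 0 genes at an unadjusted p under 0.05. Sin3a, a corepressor scaffold gene, averaged 57.2 ± 10.3 CPM in ILC1s against 74.2 ± 2.12 CPM in NK cells, the ubiquitin ligase gene Rnf111 (Arkadia) 45.7 ± 8.37 and 57.9 ± 3.62 CPM, the acetyltransferase gene Ep300 83.3 ± 14.6 and 108 ± 15.3 CPM, and the corepressor gene Ncor1 205 ± 34.6 and 243 ± 24.6 CPM. Their edgeR adjusted p-values ran from 0.329 for Sin3a to 0.526 for Ncor1. The non-SMAD arm (10 tested) had a median of -0.09. Against 8.82% of all genes tested, 2 were lower at an edgeR unadjusted p under 0.05. These were Pik3r1, a regulatory subunit of PI3 kinase, with 226 ± 19.9 CPM in ILC1s against 337 ± 42.3 CPM in NK cells (edgeR adjusted p = 0.190), and Tab2, an adaptor of the kinase TAK1, with 318 ± 44.5 and 428 ± 38.1 CPM (edgeR adjusted p = 0.286). Tab1, another such adaptor gene, averaged 29.9 ± 3.33 and 34.8 ± 3.42 CPM, and the GTPase gene Cdc42 838 ± 236 and 819 ± 102 CPM.

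Genes known to be raised by TGF-beta (20 of 21 tested) had a median of 0.76. At an edgeR unadjusted p under 0.05, 5 were higher and 0 lower, against 6.95% and 8.82% of all genes tested. Itga1, the CD49a integrin chain and itself an ILC1 marker, had a log2 fold change of 1.73 ± 0.18 (edgeR adjusted p = 0.0579). Itgae, the CD103 integrin chain, was at 7.35, 6.63 and 16.5 CPM in ILC1 replicates 1 to 3, against 3.55, 1.80 and 1.2 CPM in NK replicates 1 to 3 (2.22 ± 0.60, edgeR adjusted p = 0.199). The scaffold gene Nedd9 averaged 184 ± 15.4 CPM in ILC1s against 133 ± 8.78 CPM in NK cells (0.47 ± 0.13, edgeR adjusted p = 0.198). Its ILC1 libraries were all above its NK libraries, as for 12.5% of all genes tested. Tgfbi and Cdkn1a, also among the 5 at that p, were highest in the macrophage-rich library. Tgfbi was at 4160 CPM in ILC1 replicate 3 against 16.8 to 208 CPM in the other libraries, and Cdkn1a at 624 against 36.9 to 104 CPM. Junb, the AP-1 subunit gene with the highest level of the list, averaged 1760 ± 261 CPM in ILC1s against 1420 ± 75.1 CPM in NK cells. The list median was 1.13 without NK replicate 3. With a term for library sets, which rests on the fibroblast-rich libraries alone, the list median was 0.27. Fibroblasts and macrophages also express several of these genes, and the part of such RNA was not tested.

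Genes known to be lowered by TGF-beta in lymphocytes (12 tested) had a median of -0.87. At an edgeR unadjusted p under 0.05, 0 were higher and 6 lower, against 6.95% and 8.82% of all genes tested. The egress receptor gene S1pr5 averaged 1.1 ± 0.697 CPM in ILC1s against 40.5 ± 19.6 CPM in NK cells (edgeR adjusted p = 0.103). Klrk1, which encodes NKG2D, averaged 500 ± 55.6 CPM in ILC1s against 1030 ± 181 CPM in NK cells (edgeR adjusted p = 0.120). Il2rb had the highest level of the list, with 2900 ± 328 CPM in ILC1s against 4110 ± 945 CPM in NK cells. This list overlaps the NK cell markers (Eomes, S1pr5 and Itgam among them), so its direction is not independent of the cell types compared. The list median was -1.08 to -0.78 with each library left out in turn. With a term for library sets, which rests on the fibroblast-rich libraries alone, it was -0.80.

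**Figure D5:**
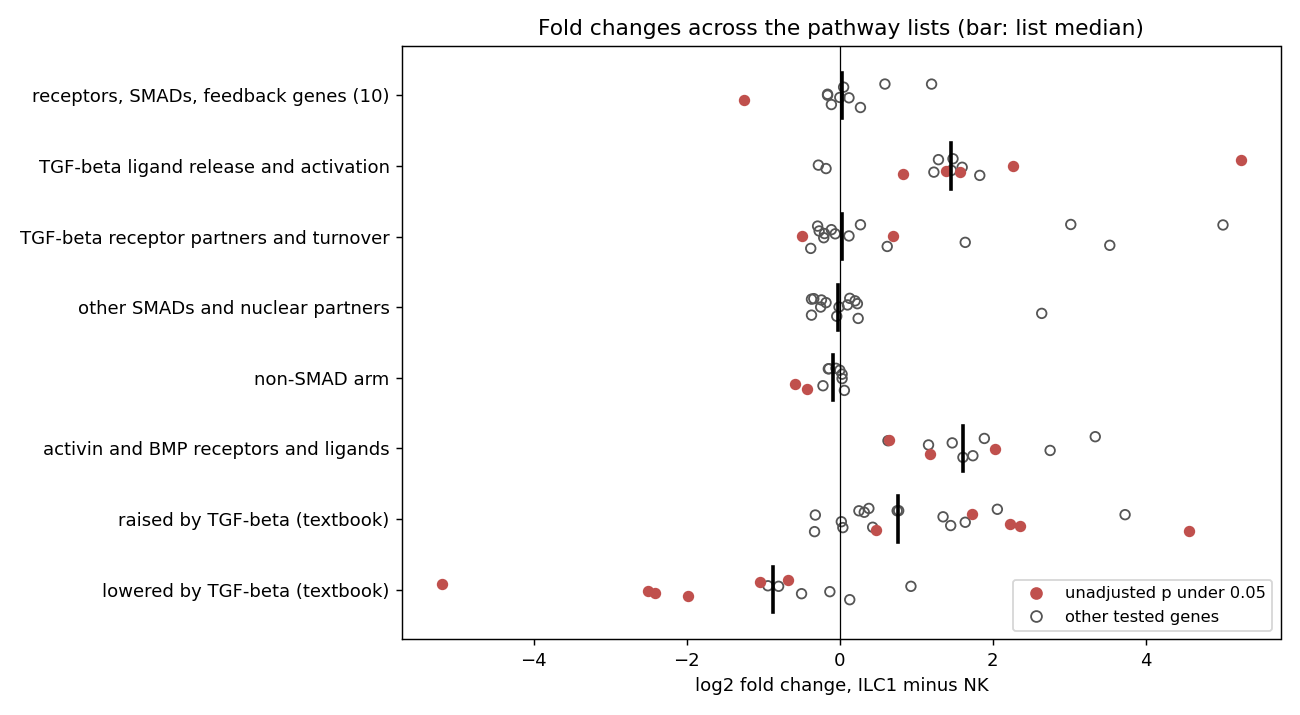
Log2 fold change, ILC1 minus NK, of every tested gene of the 10 described here and of the 7 pathway lists, where filled points have an unadjusted p under 0.05 and bars mark list medians. The 10 genes cluster near 0 apart from Smad3 (-1.25) and Tgfbr3 (1.2), and the list medians run from -0.87 (genes lowered by TGF-beta) to 1.61 (activin and BMP receptors and ligands).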

How the data were processed

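RNA was measured in 3 ILC1 and 3 NK cell libraries, grouped by the cell type label. The authors deposited raw counts per gene symbol. HISAT2 2.1.0, featureCounts 2.0.1 and GRCm38 are named, per the submitters' processing notes. Annotation release, strand setting and multi-mapping reads are not given there. Per the labels' protocols, poly(A) RNA was read as single ends of 50 bases. No molecular identifiers are described. A count of 0 allows up to 3 counts (0.144 to 0.174 CPM), for counting error only.

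Counts were tested with edgeR 4.0.16 in R 4.3.3: TMM factors (0.854 to 1.07), filterByExpr, a robust quasi-likelihood model whose single factor was cell type, and p-values adjusted by Benjamini-Hochberg over 14475 genes. Intervals of 95% come from that fit's SE. Exon lengths, positions and overlaps come from GENCODE M21, and Ctgf was matched to Ccn2 through RefSeq synonyms. The procedure was tested on simulated data, with recovery required only for large changes at a capped dispersion. The common dispersion of the real data was 0.352, and recovery at that spread is not reported here. Alternatives were other scalings and filters, DESeq2 1.42.0, limma-voom (limma 3.58.1), a replicate block, omission of each library, a term for library sets, and comparisons within those sets.

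The genes and lists were chosen with earlier results of these data known. Named from each list were genes past the test, otherwise the 3 with the smallest p, plus the gene with the highest level; not every gene picked this way is reported. The library sets follow marker content: ILC1 replicates 1 and 2 with NK replicate 3 (fibroblast-rich), ILC1 replicate 3 (macrophage-rich), and the remaining NK libraries.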

Additional observations from a re-analysis of the deposited data

How the results depend on the processing

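Smad3 (16 of 16 alternatives, log2 fold change -1.77 to -0.92), Tgfbr1 (0.04 to 1.21), Tgfbr3 (0.19 to 3.82) and Ldlrad4 (0.19 to 0.37) kept their sign in every alternative run. The count of genes lower in ILC1s among the 10 was 0 and became 1, Smad3, with no low-count filter (adjusted p = 0.0464, where 0.527% of genes passed), with DESeq2 and in ILC1 replicates 1 and 2 against NK replicate 3. In ILC1 replicate 3 against NK replicates 1 and 2, a comparison chosen after seeing the data, 1 was lower (Smad3) and 1 higher (Tgfbr1). The cause was not tested. The library sets come from earlier results of these data, so every fit that uses them was chosen with the data known. The fit with a term for library sets and the fit of ILC1 replicates 1 and 2 against NK replicate 3 rest on the same libraries. They are therefore not separate checks.

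Over all genes, edgeR called 11 higher and 1 lower in ILC1s. These counts were 47 and 91 with no low-count filter, 400 and 416 with DESeq2, 956 and 935 in ILC1 replicates 1 and 2 against NK replicate 3, and 1320 and 647 in ILC1 replicate 3 against NK replicates 1 and 2. Lower genes numbered 2 with a mean of at least 5 CPM, 2 with limma-voom and 17 with a term for library sets. With a single library left out they ran from 0 to 250 higher and from 0 to 199 lower, the high end without NK replicate 3.

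With the replicate block 0 genes were higher and 0 lower, none of the 10 passed, and Smad3 had -1.28 (adjusted p = 0.232). Nothing in the labels ties a replicate number to a mouse or date, so the numbers were not taken as pairs. Deviations of same-numbered libraries were negatively correlated (-0.363, -0.355 and -0.564 for numbers 1 to 3). Those of ILC1 replicates 1 and 2 with NK replicate 3, the fibroblast-rich libraries, were positively correlated (0.486 and 0.567). As the signs followed the library sets, they cannot show whether libraries shared a mouse.

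Genes near 0 changed sign. With single libraries left out, Tgfb1 ran from -0.37 to 0.01, Smad7 from -0.15 to 0.24, Ski from -0.14 to 0.19, Skil from -0.10 to 0.26 and Pmepa1 from -0.35 to 0.00. Tgfb1 was at 0.18 with the term for library sets and 0.14 in the fibroblast-rich libraries alone. Tgfbr2 was at 0.16 and 0.12 in the last 2 of these, Ski at 0.00 and -0.04, and Skil at -0.22 and -0.26. The sign turned without ILC1 replicate 3 for Smad7, Ski and Skil, without NK replicate 3 for Smad7 (0.17) and Ski (0.00), without NK replicate 2 for Tgfb1 and without NK replicate 1 for Pmepa1. Smad7 was at 0.01 with RLE scaling and DESeq2 and at 0.00 with no low-count filter, and Ski at -0.01 with upper-quartile scaling. Pmepa1 was at 0.13 in ILC1 replicate 3 against NK replicates 1 and 2. The fewest counts of any of the 10 genes in a library were 13, for Tgfbr3.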

Other observations

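Activin and bone morphogenetic protein (BMP) genes, the sister branches of the TGF-beta family, were tested for 11 of 15 members. None passed edgeR's test (0.0829% of all genes tested), and 3 were higher and 0 lower in ILC1s at an unadjusted p under 0.05, where 6.95% of all genes were higher and 8.82% lower. DESeq2 called 2 higher (Acvr2a and Bmp7), where it called 1.55% of 25807 genes higher, a share taken without the low-count filter. Limma-voom called 0 (0.111%). The median log2 fold change was 1.61, against 0.08 over all genes tested. Bmp7, a BMP ligand gene, was at 11.2, 10.7 and 11.6 CPM in ILC1 replicates 1 to 3, against 4.50, 1.28 and 2.40 CPM in NK replicates 1 to 3 (2.03 ± 0.50, edgeR adjusted p = 0.177). The activin receptor gene Acvr2a averaged 22.6 ± 4.08 CPM in ILC1s against 9.97 ± 4.48 CPM in NK cells (1.18 ± 0.36, edgeR adjusted p = 0.246), and Acvr1b 25.1 ± 6.32 and 16.1 ± 1.63 CPM (0.64 ± 0.23, edgeR adjusted p = 0.282). These 3 genes, named for having the smallest p of the list, were higher in every ILC1 library than in any NK library, as were 12.5% of all genes tested. Inhba, which encodes the activin A subunit, was at 46.5, 61.1 and 369 CPM in ILC1s, against 1.70, 2.36 and 42.9 CPM in NK cells, and was highest in the macrophage-rich library. The median of the list came to 3.75 without NK replicate 3. With a term for library sets, which rests on the fibroblast-rich libraries alone, it was 0.44. The part of fibroblast and macrophage RNA in the list median was not tested.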
